A study of Homo sapiens with 6 samples.

Results

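The p53 target genes described here are 9 genes that p53 switches on in stressed cells: CDKN1A, GADD45A, BTG2, MDM2, PPM1D, RRM2B, SESN1, GDF15 and ZMAT3. They were chosen by gene name from a table of 58174 genes, and each name matched 1 entry. All 9 passed the minimum of a mean of 1 FPKM over the 6 samples and so were among the 14439 genes tested. FPKM is a fragment number divided by gene length and by library size, so it is a level relative to the library. Summed FPKM ran from 449163 in control sample 2 to 533285 in mimic sample 3, and comparisons between samples depend on the scaling.

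RNA came from cells labelled Huh-7, an established human hepatocellular carcinoma line known for carrying a mutant p53. That p53 status belongs to the labelled line and was not checked in these samples, whose hepatocyte markers were nearly absent, as given below. Of the 6 samples, 3 received miR-27a-3p mimics and 3 received a negative control, labelled NC, by lipid transfection 48 h before analysis. The series is about miR-27a-3p and cisplatin sensitivity, and no label names a cisplatin treatment. The labels do not state whether the 3 samples of each group were independent cultures, and the spread behind every p-value may therefore be technical only.

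p53 is a transcription factor that is held at a low level by constant degradation and is stabilised by DNA damage and other stress. It binds paired short DNA motifs near its target genes and raises their transcription. The products stop the cell cycle, repair DNA, adjust metabolism, start cell death, or act back on p53 to end the response. Many of the same genes are also raised without p53, by growth factor signalling, by the integrated stress response or by FOXO factors. In hepatocellular carcinoma the p53 response is known for being disabled in many tumours.

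The microRNA of the mimic is shown first, since its seed is the part that pairs with target mRNAs. The mature miR-27a-3p in RefSeq, from chromosome 19, 13836447 to 13836467 on the minus strand (GRCh38.p14), reads as follows, with the seed, bases 2 to 8, in capitals.
miR-27a-3p: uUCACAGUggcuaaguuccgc
In GENCODE 29, the longest 3′ UTR annotated for a gene was searched for the complement of the seed. The words were ACTGTGAA for an 8mer, ACTGTGA for a 7mer-m8 and CTGTGAA for a 7mer-A1, on the transcript strand, with a 7mer inside an 8mer not counted again. At least 1 match lay in 4 of the 9 genes, which is 44.4%, against 31.6% of the 11527 tested genes with an annotated 3′ UTR. BTG2 and ZMAT3 each held an 8mer, which 7.08% of those genes hold, and MDM2 and SESN1 each held 1 7mer-A1 only. The 3′ UTRs searched were 10837 bases long in MDM2, 7794 in ZMAT3, 2164 in BTG2 and 1107 in SESN1, against a median of 1595. A longer sequence has more places for a word, and these shares were not adjusted for length. The 8mers of BTG2 (chr1:203307799-203307806, plus strand) and ZMAT3 (chr3:179017438-179017445, minus strand) and the 7mer-A1 of SESN1 (chr6:108987337-108987343, minus strand), all hg38, are shown with their flanks because they are the strongest matches and the match of a gene that fell. Capitals mark the matched word.
BTG2: aaggttagcaACTGTGAAcagagaggtc
ZMAT3: aaaccaatcaACTGTGAAttgtgaaatt
SESN1: aagtttagagCTGTGAAgacaggctgcc
No match was found in the annotated 3′ UTRs of CDKN1A, GADD45A, RRM2B, PPM1D or GDF15. A match is a word in a sequence and does not show that the site is used.

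Promoter windows from RefSeq, 250 bases before to 50 after a start, were held for 7 of the 9 genes, with 13 windows in all. The relaxed core of a p53 response element, which is its own reverse complement, was searched on both strands and is found in 4.79% of all 35116 such windows. The full response element is in 0.0199% of them and in none of these 13. The relaxed core was found in GDF15, beginning at base 32 after the start, and in a window at an internal start of SESN1, beginning 46 bases before it. Both stretches are shown because this is the motif by which p53 recognises its targets, with the core in capitals (GDF15 at chr19:18386181-18386207, plus strand; SESN1 at chr6:109009013-109009042, minus strand; GRCh38.p14).
GDF15: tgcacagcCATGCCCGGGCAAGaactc
SESN1: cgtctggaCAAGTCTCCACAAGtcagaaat
SESN1 fell in mimic samples and GDF15 did not pass the test, as described with their values. The known elements of several of these genes lie outside such short windows, so a window without the core says only that these letters are not in it.

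Differences between the groups reached across the transcriptome. By limma on log2(FPKM + 0.5) with Benjamini-Hochberg adjustment at 0.05, 39.6% of the tested genes were called lower and 12% higher in mimic samples, 51.6% in all, and the middle gene of the 14439 had a log2 fold change of -0.29. Median-of-ratios scaling, which brings the median to 0.01, called 27.4% lower and 26.9% higher, and quantile normalization 22.8% lower and 24.9% higher. Mitochondrial genes held 14.6% to 38.9% of summed FPKM in mimic samples and 16.9% to 32.8% in controls, highest in sample 3 of both groups. Implied fragment numbers, from the value at which FPKM times gene length piles up, were 25100000 to 31000000 in mimic samples and 17000000 to 21100000 in controls. Of 13 hepatocyte markers, 10, among them ALB, AFP, APOB and TTR, stayed under 0.1 FPKM in all 6 samples, and none reached a mean of 1 FPKM, so the labelled liver origin is not seen in these RNAs. Summed hepatocyte markers came to 0.912 to 1.27 FPKM in mimic samples and 1.15 to 2.17 FPKM in controls. Of the 6 fibroblast, 4 endothelial, 5 blood cell and 5 basal epithelial markers, only COL1A1, CD68 and KRT17 reached a mean of 1 FPKM. Summed fibroblast markers came to 7.73 to 10.47 FPKM in mimic samples and 17.7 to 18.3 FPKM in controls. Endothelial markers came to 0.512 to 0.823 FPKM in mimic samples and 1.42 to 2.91 FPKM in controls, and basal epithelial markers to 265.5 to 439.9 FPKM in mimic samples and 429.0 to 501.9 FPKM in controls. Blood cell markers came to 11.2 to 19.4 FPKM in mimic samples and 8.63 to 10.6 FPKM in controls. COL1A2, DCN, PTPRC and KRT5, which define 3 of these cell types, were at or near 0, and the part of these shifts in any result was not tested.

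Of the 9 p53 target genes, 5 fell in mimic samples (CDKN1A, GADD45A, RRM2B, SESN1 and BTG2) and none rose, by limma adjusted over all 14439 genes, with 0 higher at an unadjusted p under 0.05 too. That is 55.6% of the genes, against 39.6% of all tested genes called lower and 51.6% called in either direction. In bulk RNA, fewer cells expressing a gene and less RNA per cell cannot be told apart. The other 4, MDM2, ZMAT3, PPM1D and GDF15, did not pass. The falls were about 2-fold for CDKN1A, GADD45A and RRM2B and smaller for SESN1 and BTG2. All 3 mimic samples lay below all 3 controls in the 5 called genes, against 44.3% of tested genes, and the groups overlapped in the other 4. On the median-of-ratios scale 3 of the 9 were called lower (GADD45A, RRM2B and SESN1), against 27.4% of all genes, and on the quantile scale 3 (CDKN1A, GADD45A and RRM2B), against 22.8%. GADD45A and RRM2B were called lower on all 3 scales.

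**Figure D1:**
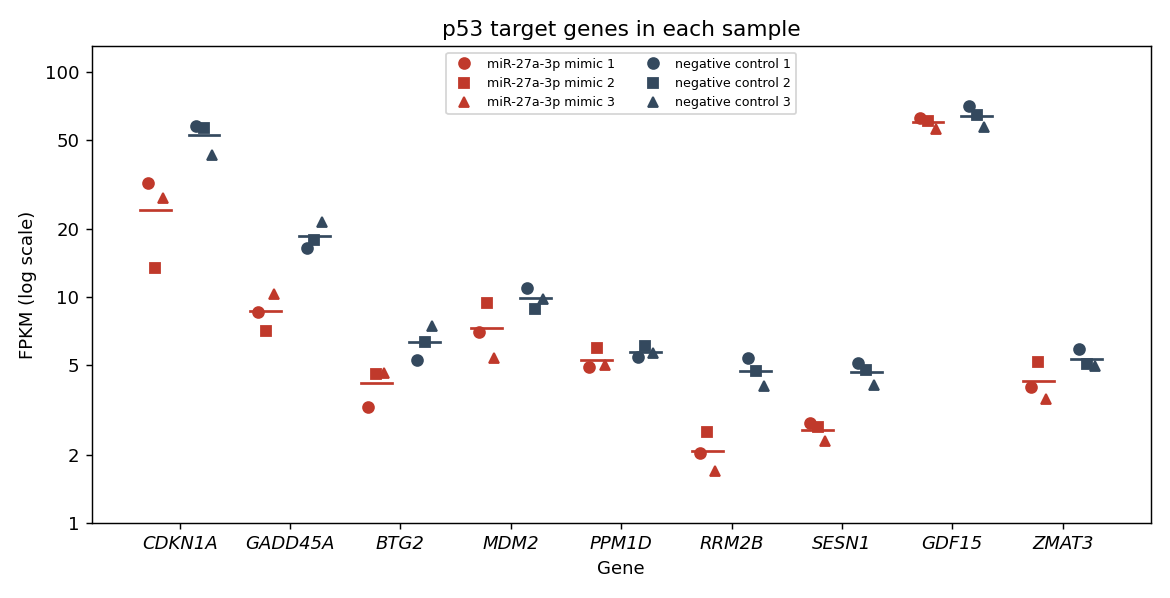
FPKM of the 9 p53 target genes on a log axis in the 3 mimic samples (red, left) and the 3 negative control samples (dark, right), with marker shapes for sample numbers and lines for group means. In CDKN1A, GADD45A, BTG2, RRM2B and SESN1 every mimic sample lies below every control, and in MDM2, PPM1D, GDF15 and ZMAT3 the groups overlap.

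Among the genes that stop the cell cycle, CDKN1A encodes p21, an inhibitor of cyclin-dependent kinases and the classic p53 target (ENSG00000124762; chromosome 6, 36676460 to 36687339, plus strand, hg38). Its FPKM was 32.2, 13.5 and 27.7 in mimic samples 1, 2 and 3, against 57.6, 56.6 and 43.0 in control samples 1, 2 and 3. Mimic sample 2 was far below the other mimic samples, and the highest mimic sample stayed below the lowest control. The means were 24.5 ± 9.73 FPKM in mimic samples and 52.4 ± 8.19 FPKM in controls (SD, n = 3 each), a ratio of 0.467. The log2 fold change was -1.16 (SE 0.31, limma adjusted p = 0.0154). Without mimic sample 2 it was -0.79 (adjusted p = 0.0152), so this sample sets much of the size. The call was lost after median-of-ratios scaling (-0.84, adjusted p = 0.0562).

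GADD45A encodes a small protein that binds PCNA and MAP3K4 and is induced by DNA damage and growth arrest (ENSG00000116717; chromosome 1, 67685061 to 67688338, plus strand). It was at 8.64, 7.09 and 10.4 FPKM in mimic samples 1, 2 and 3, against 16.6, 17.9 and 21.6 FPKM in controls. The 2 groups were well apart, with the highest mimic sample below the lowest control. With means of 8.69 ± 1.63 FPKM in mimic samples and 18.7 ± 2.57 FPKM in controls, the change was -1.07 on the log2 scale (SE 0.17, limma adjusted p = 0.00129). It was called lower under all 16 alternative settings, with values of -1.20 to -0.76.

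BTG2 encodes an antiproliferative protein that recruits the CCR4-NOT deadenylase and is also an early-response gene of growth factor signalling (ENSG00000159388; chromosome 1, 203305491 to 203309602, plus strand). Its FPKM was 3.27, 4.58 and 4.62 in mimic samples, against 5.26, 6.37 and 7.44 in controls. The groups did not overlap, and the gap between the highest mimic sample and the lowest control was small. Means of 4.15 ± 0.77 FPKM in mimic samples and 6.35 ± 1.09 FPKM in controls gave a log2 fold change of -0.56 (SE 0.18, limma adjusted p = 0.0317). The call was lost in 8 of 16 alternatives, among them median-of-ratios scaling (-0.26, adjusted p = 0.314) and quantile normalization (-0.12, adjusted p = 0.654). It was also lost without mimic sample 1 (adjusted p = 0.0802), control sample 2 (0.0777) or control sample 3 (0.103). Of the 5 calls, that of BTG2, the gene with the 8mer that fell, was lost in the most alternatives.

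MDM2 and PPM1D act back on the pathway. MDM2 encodes the ubiquitin ligase that marks p53 for degradation (ENSG00000135679; chromosome 12, 68808176 to 68850686, plus strand). It stood at 7.03, 9.42 and 5.37 FPKM in mimic samples, against 11.03, 8.84 and 9.85 FPKM in controls. Mimic sample 2 lay among the controls while mimic samples 1 and 3 lay below them. Its log2 fold change was -0.45 (95% interval -0.91 to 0.01, limma adjusted p = 0.0935), and without mimic sample 2 it was -0.64 (adjusted p = 0.0247). Sample 2 is thus the mimic sample in which CDKN1A was lowest and MDM2 highest. The genes annotated across MDM2, CPM and an antisense RNA on the other strand among them, were at no more than 0.513 FPKM in any sample.

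PPM1D encodes the phosphatase WIP1, which removes activating phosphates from p53 and its upstream kinases (ENSG00000170836; chromosome 17, 60600183 to 60666280, plus strand). It was at 4.90, 5.94 and 5.00 FPKM in mimic samples, against 5.46, 6.09 and 5.67 FPKM in controls, and the groups overlapped. The log2 fold change was -0.11 (95% interval -0.42 to 0.20, adjusted p = 0.506), which turned to 0.18 after median-of-ratios scaling and 0.30 after quantile normalization, uncalled on each scale.

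RRM2B encodes p53R2, the small ribonucleotide reductase subunit that supplies deoxynucleotides for repair and for mitochondrial DNA in cells that do not divide (ENSG00000048392; chromosome 8, 102204502 to 102239118, minus strand). Its FPKM was 2.03, 2.51 and 1.69 in mimic samples, against 5.38, 4.70 and 4.05 in controls. No mimic sample came near a control, and in both groups sample 3 was the lowest. The means of 2.08 ± 0.413 FPKM in mimic samples and 4.71 ± 0.67 FPKM in controls gave the lowest ratio of the 9 genes, 0.442. The log2 fold change was -1.02 (SE 0.17, limma adjusted p = 0.00175), which the pseudocount makes smaller at such low values, and it was -0.45 after quantile normalization (adjusted p = 0.0334). Its paralog RRM2, the subunit used in S phase, also fell, to 41.8 ± 4.01 FPKM in mimic samples, against 61.4 ± 1.63 FPKM in controls (-0.55, SE 0.13, adjusted p = 0.00729). The fall of RRM2 was not called after median-of-ratios scaling (adjusted p = 0.114) but was called after quantile normalization (limma adjusted p = 0.00654).

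SESN1 and GDF15 link the pathway to metabolism. SESN1 encodes a sestrin, which restrains mTORC1 when nutrients are short or cells are stressed (ENSG00000080546; chromosome 6, 108986437 to 109094819, minus strand). It was at 2.76, 2.66 and 2.30 FPKM in mimic samples, against 5.09, 4.76 and 4.08 FPKM in controls. The samples of each group lay close together and the groups were apart. SESN1 had a log2 fold change of -0.74 (SE 0.15, limma adjusted p = 0.00363), and after quantile normalization the call was lost (-0.20, adjusted p = 0.21). An antisense RNA inside the gene was at 0 to 0.194 FPKM in mimic samples and 0.644 to 1.51 FPKM in controls, and reads of the 2 strands may be mixed because the strand setting is not known. Its paralog SESN2, which the integrated stress response also induces, stood at 20.98 ± 3.08 FPKM in mimic samples and 21.3 ± 1.18 FPKM in controls (-0.03, SE 0.15, adjusted p = 0.873). Per length of gene, SESN2 was thus the more abundant of the pair in both groups.

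GDF15 encodes a secreted cytokine of the TGF-beta superfamily that rises in stressed tissue and acts on appetite through the brainstem (ENSG00000130513; chromosome 19, 18374731 to 18389176, plus strand). It was the most abundant of the 9 genes in mimic samples, at 62.4, 60.8 and 56.1 FPKM, against 70.3, 64.3 and 57.2 FPKM in controls. All 6 values lay in 1 narrow band, with the lowest control between the mimic samples. GDF15 had a log2 fold change of -0.09 (95% interval -0.40 to 0.21, limma adjusted p = 0.591). It was 0.23 after median-of-ratios scaling (adjusted p = 0.0812), so its direction depends on the scale. GDF15 is also a target of the integrated stress response, and 3 of 13 tested genes of that response rose while 3 fell, against 12% of all tested genes higher and 39.6% lower. After median-of-ratios scaling 7 were higher and 2 lower, against 26.9% higher and 27.4% lower of all tested genes. After quantile normalization 3 were higher and 3 lower, against 24.9% and 22.8%. On the deposited scale DDIT4 rose to 255.2 ± 72.0 FPKM in mimic samples, against 86.9 ± 12.4 FPKM in controls, and PPP1R15A fell to 21.4 ± 0.804 FPKM, against 100.1 ± 3.82 FPKM in controls. CHAC1, a glutathione-degrading enzyme gene, fell (-1.37) and VLDLR, a lipoprotein receptor gene, rose (0.66).

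ZMAT3 encodes a zinc finger RNA-binding protein that acts on splicing and mRNA stability (ENSG00000172667; chromosome 3, 179017223 to 179072279, minus strand). Its FPKM was 4.02, 5.18 and 3.54 in mimic samples, against 5.91, 5.07 and 4.94 in controls. As with MDM2, mimic sample 2 was the highest mimic sample and lay among the controls. The log2 fold change was -0.30 (95% interval -0.68 to 0.08, limma adjusted p = 0.16), close to the median of all tested genes, and 0.15 after quantile normalization. This gene holds an 8mer and a pair of 7mer-A1 words and did not pass the test under any of 15 alternatives.

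The size of the changes spread widely around the median of all genes. Of all tested genes, 14.1% had a more negative fold change than CDKN1A, 16.7% than GADD45A and 18.3% than RRM2B. This share was 28.3% for SESN1, 36.3% for BTG2 and 41.7% for MDM2, and 49.1% for ZMAT3, 59.6% for PPM1D and 60.8% for GDF15. The 3 largest falls, in CDKN1A, GADD45A and RRM2B, were in genes with no seed match in the annotated 3′ UTR. A link between seed matches and the size of a fall was not tested.

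**Figure D2:**
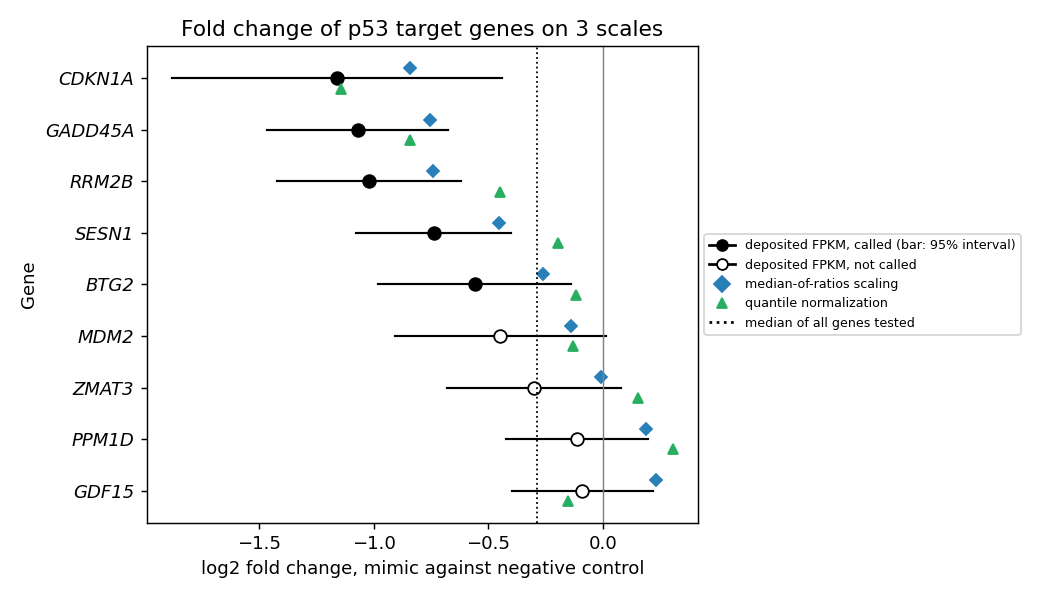
Log2 fold change of each p53 target gene, mimic against negative control, on the deposited FPKM scale with its 95% interval (circles, filled where called), after median-of-ratios scaling (diamonds) and after quantile normalization (triangles). The dotted line at -0.29 is the median of all tested genes on the deposited scale. That median was 0.01 after median-of-ratios scaling and 0.03 after quantile normalization. CDKN1A, GADD45A and RRM2B lie left of the dotted line on all 3 scales.

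By mean level in FPKM, the order in mimic samples was GDF15, CDKN1A, GADD45A, MDM2, PPM1D, ZMAT3, BTG2, SESN1 and RRM2B. In those samples the neighbours from GADD45A down overlapped each other, except that BTG2 (lowest 3.27) lay above SESN1 (highest 2.76), while GDF15, CDKN1A and GADD45A were apart. In controls the order was GDF15, CDKN1A, GADD45A, MDM2, BTG2, PPM1D, ZMAT3, RRM2B and SESN1. There GDF15 and CDKN1A just overlapped (57.2 and 57.6 at the edges), GADD45A stood clear of its neighbours, MDM2 lay above BTG2, and the genes from BTG2 down overlapped from neighbour to neighbour.

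Tested protein-coding genes with the most similar profiles over the 6 samples were found by the root mean square distance of centred log2 values. AFF4 (0.0496) and MPHOSPH8 (0.0563) were nearest to RRM2B, MFSD4B (0.0325) and LIMD1 (0.034) to SESN1, and VEGFD (0.0607) and EFCAB2 (0.0786) to GADD45A. SPATA13 (0.0626) and DNAAF4 (0.0752) were nearest to BTG2, and RTL10 (0.109) and ANKMY1 (0.154) to CDKN1A. With 2 groups of 3 samples this likeness is mainly that of the group difference.

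Paralogs of the 9 genes gave 5 lower and 2 higher of 13 tested, near the 39.6% lower and 12% higher of all tested genes. Their median log2 fold change was -0.37. On the median-of-ratios scale 3 were lower and 2 higher, beside 27.4% lower and 26.9% higher of all tested genes. GADD45B fell to 9.39 ± 2.16 FPKM in mimic samples, against 22.6 ± 0.811 FPKM in controls (-1.25, SE 0.17, limma adjusted p = 0.000552), so both expressed GADD45 genes fell, while GADD45G was listed at 0 in all samples. BTG3 fell (-0.74, SE 0.14), and so did BTG1 (-0.66, adjusted p = 0.0163), a gene picked with its values in view. BTG1 was not called after median-of-ratios scaling (adjusted p = 0.0735) but was called after quantile normalization (limma adjusted p = 0.0108). MDM4, the MDM2 relative that blocks the activation domain of p53, fell to 2.44 ± 0.445 FPKM in mimic samples, against 5.16 ± 0.64 FPKM in controls (-0.95, SE 0.16), but not past the threshold after quantile normalization (adjusted p = 0.0692). CDKN1B, which encodes the p27 relative of p21 and was chosen after its values were seen, had 33.6 ± 5.89 FPKM in mimic samples and 34.7 ± 2.78 FPKM in controls (adjusted p = 0.782).

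The wider p53 programme was mixed, with shares near those of all tested genes on each scale. Of 95 further genes known to be induced by p53, 88 were tested, of which 31 fell and 14 rose, with a median log2 fold change of -0.18, against -0.29 for all tested genes. After median-of-ratios scaling 21 were lower and 27 higher, beside 27.4% lower and 26.9% higher of all tested genes. After quantile normalization 22 were lower and 23 higher, beside 22.8% and 24.9%. The share called lower, 31 of 88, stands beside 39.6% of all tested genes, and 14 of 88 higher beside 12%.

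By role, the other growth arrest genes had 5 of 10 lower and 1 higher, beside 39.6% lower and 12% higher of all tested genes. The polo-like kinase genes PLK3 (-1.36, SE 0.14) and PLK2 (-1.20, SE 0.19), E2F7, a repressor of cell cycle genes (-1.12, SE 0.14), and FBXW7, a ubiquitin ligase subunit (-1.06, SE 0.14), fell on all 3 scales. SFN, which encodes 14-3-3 sigma, a brake on mitotic entry, was the gene that rose, to 343.0 ± 6.12 FPKM in mimic samples, against 211.1 ± 8.69 FPKM in controls. Cell death genes had 5 of 15 lower and 4 higher, beside the same 39.6% and 12%. On the median-of-ratios scale 4 were lower and 7 higher, beside 27.4% and 26.9% of all tested genes. On the quantile scale 3 were lower and 7 higher, beside 22.8% and 24.9%. The BH3-only gene PMAIP1 (-0.93, SE 0.17) and the TRAIL receptor gene TNFRSF10B (-0.85, SE 0.17) fell, and EI24, which encodes an endoplasmic reticulum membrane protein, rose (0.68, SE 0.14). APAF1, the scaffold of the apoptosome, fell (-0.69, SE 0.15), with no call after quantile normalization (adjusted p = 0.749). BAX, the pore-forming effector of apoptosis, named after its values were seen, rose to 52.4 ± 7.56 FPKM in mimic samples, against 33.6 ± 1.57 FPKM in controls (0.62, SE 0.14, limma adjusted p = 0.00683).

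DNA repair targets had 2 of 8 lower, DDB2 (-0.56, SE 0.14) and REV3L (-0.73, SE 0.23), and none higher by limma. Of all tested genes, 39.6% were lower and 12% higher. At an unadjusted p under 0.05, 0 repair targets were higher. Neither fall was called after median-of-ratios scaling (adjusted p = 0.132 for DDB2 and 0.131 for REV3L). After quantile normalization DDB2 was called lower (-0.42, limma adjusted p = 0.0243) and REV3L was not (adjusted p = 0.691). Metabolic and redox targets had 5 of 14 higher and 3 lower, beside 12% higher and 39.6% lower of all tested genes. After median-of-ratios scaling 8 were higher and 1 lower, beside 26.9% higher and 27.4% lower of all tested genes. After quantile normalization 7 were higher and 1 lower, beside 24.9% and 22.8%. CMBL, a hydrolase gene, rose (0.79, SE 0.17), as did DRAM1, a lysosomal activator of autophagy (0.70, SE 0.18), and SCO2, a cytochrome c oxidase assembly gene (0.62, SE 0.17), while the lysosomal fucosidase gene FUCA1 fell (-1.13, SE 0.15). Signalling and other targets had 16 of 41 lower and 4 higher, near the 39.6% lower and 12% higher of all tested genes. The median-of-ratios scale gave 12 lower and 10 higher, beside 27.4% and 26.9% of all tested genes. The quantile scale gave 12 lower and 8 higher, beside 22.8% and 24.9%. The stress transcription factor gene ATF3 fell furthest, to 10.3 ± 2.0 FPKM in mimic samples, against 290.9 ± 14.8 FPKM in controls. TRIM22, an interferon-inducible ubiquitin ligase gene (-2.83), ANKRA2 (-1.45) and RALGDS, an activator of Ral GTPases (-1.39), had the next smallest p-values, and ORAI3, a calcium channel gene named after its values were seen, also fell (-1.83, limma adjusted p = 0.000969).

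**Figure D3:**
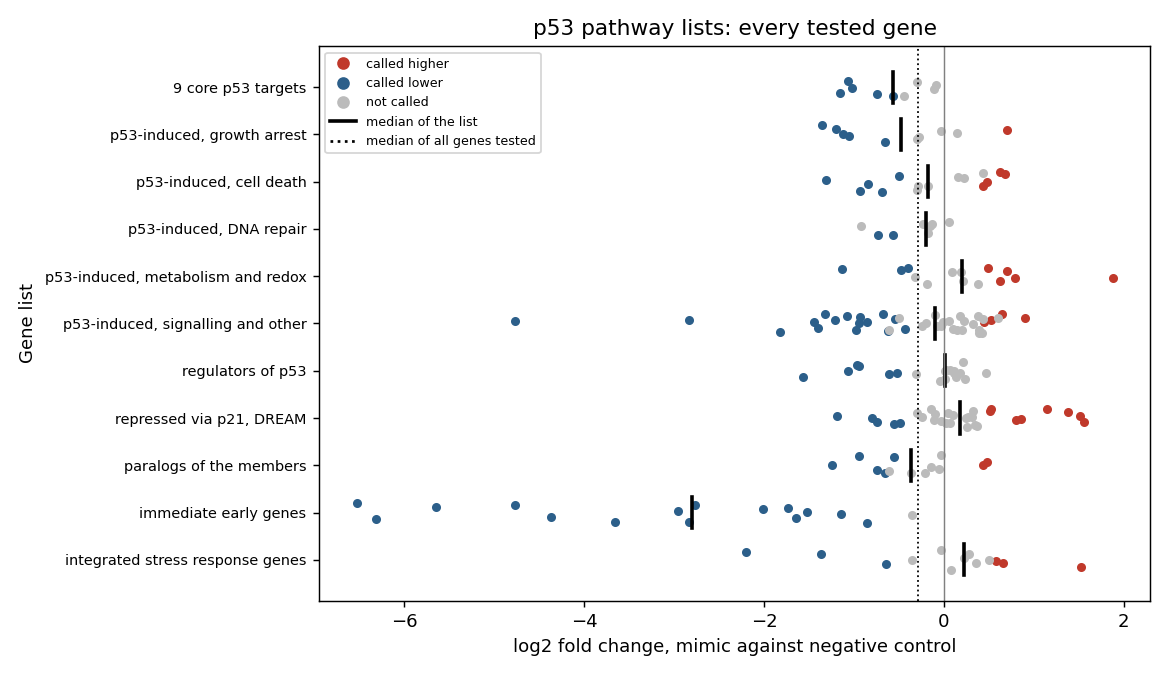
Log2 fold change, mimic against negative control, of every tested gene in the p53 pathway lists (red called higher, blue called lower, grey not called), with the median of each list as a bar and the median of all tested genes as a dotted line at -0.29. The 9 core targets lie between -1.16 and -0.09, the other induced genes spread to both sides, and the immediate early genes lie far to the left with a median of -2.80.

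Regulators of p53 had 6 of 19 tested members lower and none higher by limma, beside 39.6% lower and 12% higher of all tested genes. At an unadjusted p under 0.05, 0 were higher, and the median was 0.02. Of the kinase genes that signal DNA damage to p53, ATR (-1.07, SE 0.14), CHEK2 (-0.97, SE 0.13) and ATM (-1.56, SE 0.24) fell. CHEK1 did not fall (0.07, SE 0.13, limma adjusted p = 0.678), and with median-of-ratios factors it counted among the raised genes. HIPK2, a further kinase gene of the list, was not called (0.02, SE 0.23, limma adjusted p = 0.941). CHEK1 and HIPK2 were named with their values in view. The other falls were in MDM4 as above, and in SIRT1 and TP53BP1. Both SIRT1 and TP53BP1 were named after their values were seen and called on the deposited scale only among the 3. After median-of-ratios scaling 4 of the 19 regulators were lower and 5 higher, beside 27.4% lower and 26.9% higher of all tested genes. On the quantile scale 3 were lower and 1, HIPK2, was higher, beside 22.8% and 24.9%. Of 30 cell cycle genes that p53 represses through p21 and the DREAM complex, 8 rose and 5 fell, with a median of 0.18. Of all tested genes, 12% rose and 39.6% fell. After median-of-ratios scaling 18 of the 30 were higher and 3 lower, beside 26.9% higher and 27.4% lower of all tested genes. After quantile normalization 11 were higher and 5 lower, beside 24.9% and 22.8%. PLK1, a mitotic kinase gene, rose to 83.4 ± 4.33 FPKM in mimic samples, against 28.1 ± 1.09 FPKM in controls (1.55, SE 0.12, limma adjusted p = 5.86e-05). CDC20, an activator of the anaphase-promoting complex (1.38, SE 0.18), and BIRC5, which encodes survivin (1.14, SE 0.14), also rose, while KIF23, a kinesin gene of cytokinesis, fell (-1.19, SE 0.12).

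Of the immediate early genes, which growth factors switch on within minutes and which include ATF3, 15 of the 16 tested fell, against 39.6% of all tested genes. None was called higher by limma, and 0 were higher at an unadjusted p under 0.05. Their summed level was 422.7 to 446.9 FPKM in mimic samples and 3371 to 3496 FPKM in controls. FOSB fell to 0.452 ± 0.0755 FPKM in mimic samples, against 87.5 ± 11.6 FPKM in controls, and EGR1, a zinc finger transcription factor gene, and CCN1, a matrix protein gene, had log2 fold changes of -6.32 and -3.66. Their part in the falls of CDKN1A, GADD45A and BTG2 was not tested.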

How the data were processed

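The deposited tables hold FPKM, 1 value per gene and sample, per the file headers, and the 6 tables of single samples were identical to the series table. The submitters' processing notes name FastQC and HISAT2, and hg38 as the build. The sources used here give no quantifier, strand setting or annotation. FPKM is relative to the library, so a gene can be lower because others take more of it. Only 9.48% to 12.7% of low values were whole multiples (within 1%) of the implied single fragment, so values could not be turned back into reads, count tests do not apply, and precision rests on 3 samples a group.

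Groups follow the sample titles. Symbols were matched by identifier (57392 matched), SCO2 by its entry with the higher mean, and UTRs came from GENCODE 29. Genes averaging 1 FPKM or more over the 6 samples were tested with limma-trend (limma 3.58.1, R 4.3.3), robust moderation, on log2(FPKM + 0.5), with no covariates. Values are mean ± SD (n = 3) and fold changes are on that log2 scale, mimic over negative control. The 16 alternatives were pseudocounts 0.1 and 1, no filter or a mean of 5 FPKM, 3 rescalings, no robust moderation, a replicate block and samples left out. Beyond the 9 genes, up to 4 called genes with the smallest p were eligible for naming in each list, with others stated. The 9 genes and the lists were chosen with earlier results of these data known.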

Additional observations from a re-analysis of the deposited data

How the results depend on the processing

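Of the 5 falls, GADD45A was called under all 16 alternatives and RRM2B under all 15 that tested it; a mean of at least 5 FPKM leaves out RRM2B, SESN1 and ZMAT3. CDKN1A lost its call after median-of-ratios scaling, SESN1 after quantile normalization, and BTG2 in 8 of 16. Uncalled values changed sign after median-of-ratios scaling for GDF15 (0.23) and PPM1D (0.18), and after quantile normalization for ZMAT3 (0.15) and PPM1D (0.30). The number of p53 target genes called lower was 3 with either scaling and 3 of the 6 tested under the 5 FPKM minimum, and 4 to 6 with 1 sample left out; none was called higher under any alternative.

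Over all genes, median-of-ratios scaling called 3889 higher and quantile normalization 3592 higher and 3289 lower, so higher genes were 49.6% and 52.2% of calls, against 23.3% on the deposited scale. With fewer or more genes tested, 2916 were lower with the 5 FPKM minimum and 8755 without a filter. Of the wider p53-induced list, 27 were higher after median-of-ratios scaling and 23 after quantile normalization, against 14 on the deposited scale. Of all tested genes, 26.9% and 24.9% were higher on these 2 scales, against 12% on the deposited scale. With 1 sample left out, 7 to 16 of the list were higher. The number was 8 without mimic sample 2, 9 without control sample 1 and 7 without control sample 3. The cause of these shifts was not tested.

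The replicate number as a block gave 5 p53 target genes lower, 17 of the induced list higher and 32 lower, and 2117 genes higher and 5994 lower. The labels do not say that numbers pair samples, so the numbers were not taken as pairs. Deviations of same-numbered samples correlated at 0.177, -0.0467 and 0.223 across genes. Samples 1 and 3 correlated best with their own number and sample 2 did not, so these correlations do not settle whether the numbers mark pairs. Depth is known only as an implied fragment number, so no counting interval is given for the low levels of RRM2B and SESN1.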
